A study of Mus musculus with 5 samples.

Results

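The transcripts of 10 genes that mark epithelial or mesenchymal states were examined in 5 mouse embryonic stem cell (ESC) lines. The genes were chosen by name, with earlier results of these data known. They comprised Cdh1, Cldn6, Ocln, Cdh2, Vim, Fn1, Snai1, Snai2, Twist1 and Zeb2. Of the 41174 probes on the array that were not controls, 15 carried the names of 9 of these genes. Zeb2 had no probe under that name and was read from 4 probes under its older symbol Zfhx1b and from another probe, D130016B08Rik, that RefSeq assigns to it, so that 20 probes were examined in all. Of these, 13 were called Present on at least 1 array, meaning that the spot was uniform, unsaturated and significantly above its background, and were kept for the tests. The other 7 probes (2 of Cdh2, 1 of Ocln, 1 of Vim and 3 of Zeb2) were well above background on no array. Each gene is represented by its brightest probe, and all 10 of these were well above background on all 5 arrays.

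In the study, the coding region of ECAT11, a gene expressed in ESCs, was replaced with a cassette of EGFP and a puromycin resistance gene. The wild-type group held 2 lines, namely RF8, the parental line in which the gene was targeted (129sv origin, labelled male), and #620-2 (C57BL6/129sv origin, labelled female). The ECAT11EGFP/EGFP knock-in group held 3 lines of C57BL6/129sv origin, namely #620-6 (labelled female), #757-1 and #757-2 (both labelled male). All lines except RF8 came from blastocysts of intercrossed heterozygous mice. Each line is a separate clone, all lines were grown with serum and LIF, and the ESCs for the arrays were kept on gelatin-coated dishes without feeder cells. Cy3-labelled total RNA of each line was hybridized to 1 Agilent array, so lines are the replicates, p-values measure the spread between lines, and no line has a replicate of its own. The signals below are the log2 of the background-corrected intensity after each array was divided by its 75th percentile, so that 0 is the 75th percentile of an array. Levels of different probes cannot be compared on this scale.

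The arrays lay on 2 slides, with RF8, #620-2 and #620-6 on slide 1 and #757-1 and #757-2 on slide 2. Slide 1 had from 26359 to 27128 probes clear of background per array, and slide 2 had 21236 and 22039. No probe is named ECAT11, and its own transcript is not analysed here. The Y-linked genes Ddx3y and Eif2s3y were well above background in the 3 lines labelled male and in neither line labelled female, and Xist showed the opposite pattern. All 9 ESC markers examined (Pou5f1, Sox2, Nanog, Esrrb, Zfp42, Tdgf1, Fbxo15, Utf1 and Dppa5a) were well above background in all 5 lines. The most variable of them were Zfp42, with a range of 3.13 on the log2 scale, Nanog with 2.00 and Fbxo15 with 1.75.

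Epithelial cells adhere to their neighbors through E-cadherin and seal the space between them with tight junctions built from claudins and occludin. In an epithelial-mesenchymal transition, transcription factors of the Snail, Zeb and Twist families repress these junction genes, and the cells gain vimentin filaments, fibronectin and often N-cadherin. Mouse ESCs grow as compact colonies held together by E-cadherin. Many of the repressors recognize the E-box CAGGTG in promoters.

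Fn1 was measured by 3 probes, and their sequences are shown because they read different stretches of the same transcript. All 3 were lowest in #620-6. The probes are 60 bases long and lie on the minus strand of chromosome 1, and their positions are given as in the files, in build mm7. The brightest spans chr1:71832689-71834926, the next chr1:71839394-71839453 and the dimmest chr1:71869155-71869913. The spans of the first and last, 2238 and 759 bases, are longer than the probes themselves. An exon annotation of that build was not used here.
Fn1 brightest probe: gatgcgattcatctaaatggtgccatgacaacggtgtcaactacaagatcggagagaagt
Fn1 intermediate probe: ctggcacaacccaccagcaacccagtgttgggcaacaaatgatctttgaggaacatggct
Fn1 dimmest probe: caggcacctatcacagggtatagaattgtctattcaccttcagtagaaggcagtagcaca

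The 250 bases before the annotated start were available for 6 of the 10 genes, in 10 windows (RefSeq, GRCm38.p6). The E-box CAGGTG, read on either strand, occurred in 3 of these windows, namely those of Cldn6 and Snai1 and 1 of the windows of Ocln. It was present in 17.2% of 32851 promoter windows of the same length. The less strict form CANNTG, which includes CAGGTG, was present in the same 3 windows of the genes and in 66.2% of all windows. The windows of Cldn6 and Snai1, a junction gene and a repressor gene that differed between the lines in opposite directions, are shown with the E-box in capitals. A match says only that these letters are present. The window of Cldn6 lies at chr17:23679115-23679364 on the plus strand, and its E-box starts at position -93 relative to the start site. The window of Snai1 lies at chr2:167537945-167538194 on the plus strand, and it holds the motif as CACCTG, the reverse complement, at position -126.
Cldn6: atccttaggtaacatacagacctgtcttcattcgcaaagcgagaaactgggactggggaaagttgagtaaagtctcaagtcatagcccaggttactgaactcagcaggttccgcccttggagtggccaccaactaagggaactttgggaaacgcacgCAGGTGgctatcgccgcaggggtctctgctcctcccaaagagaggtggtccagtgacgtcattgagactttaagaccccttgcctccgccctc
Snai1: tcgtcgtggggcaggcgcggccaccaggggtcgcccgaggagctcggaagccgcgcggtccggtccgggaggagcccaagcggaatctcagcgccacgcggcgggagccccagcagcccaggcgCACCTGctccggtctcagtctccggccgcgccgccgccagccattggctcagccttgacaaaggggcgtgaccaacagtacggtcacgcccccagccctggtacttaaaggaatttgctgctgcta

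Of the 3 junction genes, Cdh1 and Cldn6 were lowest in both #620 lines, and Ocln was lowest in #620-6. Cdh1 encodes E-cadherin, the main adhesion molecule of ESC colonies. The probe's log2 signal was 4.94 for RF8, 3.85 for #620-2, 3.42 for #620-6, 4.71 for #757-1 and 4.27 for #757-2. Both #620 lines thus lay below the other 3, and the lines farthest apart, RF8 and #620-6, differed 2.88-fold. Cldn6 encodes claudin 6, a tight junction protein of early embryonic epithelia. On the log2 scale the signal was 1.26 for RF8, 0.14 for #620-2, -0.65 for #620-6, 1.59 for #757-1 and 1.00 for #757-2. This was the widest spread of the 10 genes, 4.73-fold between #757-1 and #620-6, and again the #620 lines were below all others. Ocln encodes occludin, another membrane protein of tight junctions. The signal, as log2, was -0.62 for RF8, -1.53 for #620-2, -2.24 for #620-6, -1.21 for #757-1 and -1.72 for #757-2. Here the #620 lines were not set apart, because #757-2 lay between them, and RF8 and #620-6 differed 3.08-fold.

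Cdh2 encodes N-cadherin, the cadherin typical of neural and mesenchymal cells. Its log2 signal was -0.59 for RF8, -2.07 for #620-2, -1.83 for #620-6, -0.60 for #757-1 and -0.83 for #757-2. The 3 lines labelled male lay close together and the #620 lines below them, with 2.80-fold between RF8 and #620-2. The Cdh2 transcript was thus lower in the #620 lines than in the other 3, as that of Cdh1 was, but within the #620 pair Cdh1 was lower in #620-6 and Cdh2 in #620-2.

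Vim showed the opposite order. It encodes vimentin, the intermediate filament protein of mesenchymal cells. The probe's log2 signal was 4.29 for RF8, 5.13 for #620-2, 5.31 for #620-6, 4.06 for #757-1 and 4.45 for #757-2. Both #620 lines were above the other 3, and #620-6 exceeded #757-1 2.37-fold. Fn1 encodes fibronectin, a matrix glycoprotein. The brightest of its 3 probes, shown above, gave 2.10 in RF8, 1.97 in #620-2, 1.56 in #620-6, 1.78 in #757-1 and 1.82 in #757-2. It varied least of the 10 genes, 1.46-fold from highest to lowest. The intermediate probe gave -1.44, -1.52, -2.01, -1.77 and -1.71 in the same order of lines. The dimmest probe gave -4.25, -4.32, -4.76, -4.39 and -4.17 and was not well above background in #757-2. All 3 probes were lowest in #620-6, and their ranges were between 0.55 and 0.59 on the log2 scale.

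Among the transcription factor genes, Snai1 and Twist1 were highest in the #620 lines. Snai1 encodes Snail, a zinc finger repressor of Cdh1. On the log2 scale the signal was -1.86 for RF8, -1.39 for #620-2, -1.09 for #620-6, -1.95 for #757-1 and -2.09 for #757-2. Both #620 lines were above the other 3, and the extremes differed 2.01-fold. Twist1 encodes a basic helix-loop-helix factor of mesoderm and neural crest. The signal, as log2, was -3.16 for RF8, -2.15 for #620-2, -1.88 for #620-6, -2.51 for #757-1 and -3.15 for #757-2. The #620 lines were again the highest, although #757-1 lay nearer to #620-2 than to #757-2, and the extremes differed 2.42-fold.

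Snai2 and Zeb2 followed other orders. Snai2 encodes Slug, a close relative of Snail. Its log2 signal was -1.87 for RF8, -1.41 for #620-2, -0.86 for #620-6, -1.44 for #757-1 and -1.15 for #757-2. RF8 was the lowest and #620-6 the highest, 2.01-fold apart, and the wild-type line #620-2 lay among the knock-in lines. Zeb2 encodes a zinc finger and homeodomain repressor. The probe's log2 signal was -1.90 for RF8, -2.69 for #620-2, -3.05 for #620-6, -3.48 for #757-1 and -3.34 for #757-2. Both wild-type lines were above all 3 knock-in lines, with 3.0-fold between RF8 and #757-1. Another Zeb2 probe gave -3.88, -4.81, -5.20, -5.69 and -5.38 in the same order of lines and was well above background in the 3 lines of slide 1 only.

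**Figure D1:**
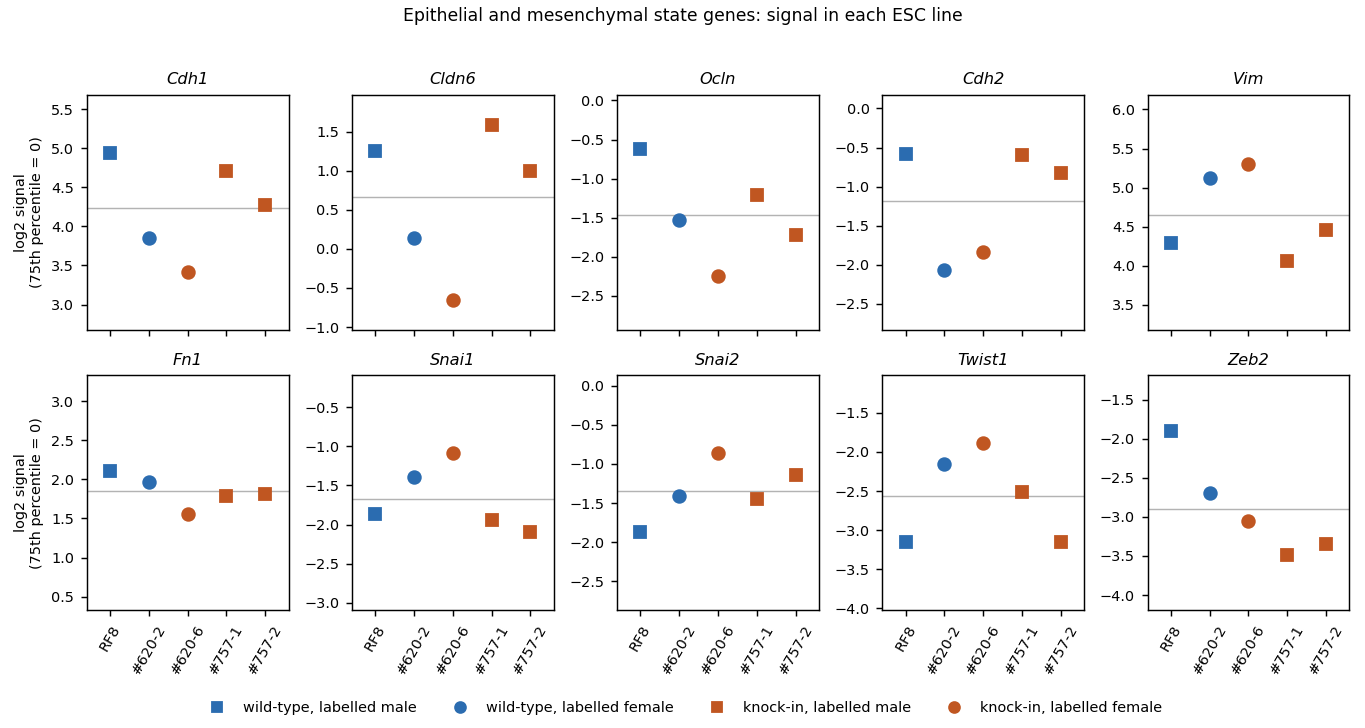
The vertical axis of each panel gives the log2 signal of a gene's brightest probe relative to the 75th percentile of the array, over a span of equal height in all panels, and the horizontal axis gives the 5 lines. Each point is 1 line on 1 array, color marks the genotype, shape the sex label, and the grey line the mean over the 5 lines. Cdh1, Cldn6 and Cdh2 were lowest, and Vim, Snai1 and Twist1 highest, in #620-2 and #620-6.

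Of the 10 genes, 9 had a range of more than 1 on the log2 scale, that is more than 2-fold between the highest and the lowest line. The exception was Fn1. Among the 20610 probes measured well above background in every line, 23.5% had such a range. The median range was 1.38 for the 10 genes and 0.598 for those probes. Since cells were measured in bulk, fewer cells of a type and less RNA per cell cannot be told apart.

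The genes were also compared by the root mean square difference of their log2 signals over the 5 lines, after each gene was centered on its own mean. Cdh1 lay nearest to Ocln, at 0.23, and then to Cdh2, at 0.29. Snai1 lay nearest to Vim, at 0.21, and to Twist1, at 0.25. The largest difference, 1.30, was that between Cldn6 and Vim. These values describe 5 points that share arrays and slides.

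**Figure D2:**
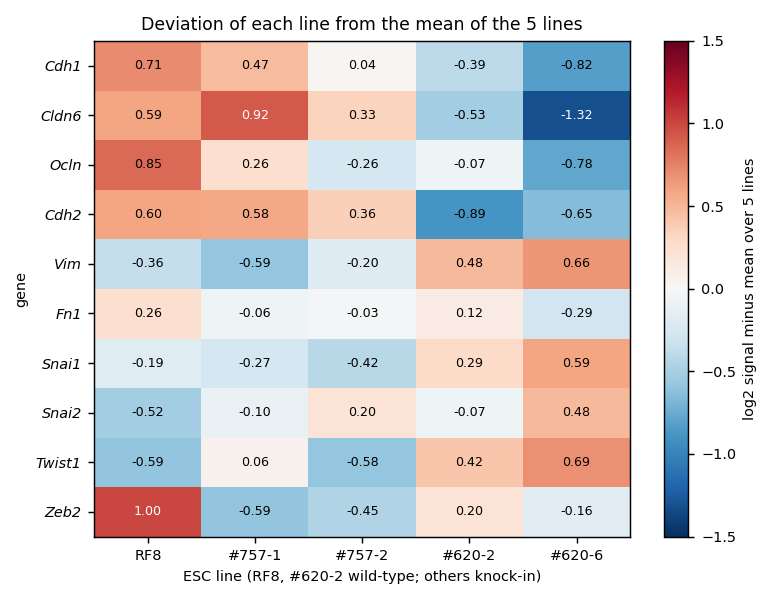
Each cell gives, for 1 gene (vertical axis) in 1 line (horizontal axis), the log2 signal minus the mean of that gene over the 5 lines, in red above the mean and in blue below it. The deviations of Cdh1, Cldn6, Ocln and Cdh2 were negative in both #620 lines, down to -1.32 for Cldn6 in #620-6, and those of Vim, Snai1 and Twist1 were positive there.

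By the same measure, the genes most like each of the 10 were sought among the 20610 probes. For Cdh1 they included Vwa2, at 0.052, and Atxn1l, at 0.066. For Cdh2 they were Ugt8a, Fut9 and Lin28b, between 0.068 and 0.087. For Cldn6 they were Eif4g3, Emb and Frmd4b, between 0.069 and 0.13. Ocln had Cflar at 0.039, a probe of Cgn at 0.044, and Nek1 at 0.073. Cgn encodes the tight junction protein cingulin, and its brightest probe lay at 0.34 from Ocln. Vim had Tmem191c at 0.052 and Fitm2 at 0.056. Snai1 had Igbp1, Ccdc120 and Mbnl1, between 0.021 and 0.032, Snai2 had Atp7a, Kalrn and Tspo2, between 0.021 and 0.048, and Twist1 had Tenm4, 2310067E19Rik and Asb1, between 0.066 and 0.11. Zeb2 had Prss23 at 0.077. Fn1 had Stat3, Aar2 and Hsd17b11, between 0.014 and 0.024. The number of probes within 0.1 differed widely, with 349 for Fn1, 62 for Snai1, 33 for Snai2, 21 for Vim and 13 for Cdh1. It was 7 each for Cdh2 and Ocln, 2 each for Cldn6 and Zeb2, and 1 for Twist1. The signals were centered but not scaled, so these counts also depend on a gene's range, which was smallest for Fn1. They do not give how common a pattern is.

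The comparison of genotypes asked whether the disruption of ECAT11 changed these genes. A gene was called where its adjusted p lay below 0.05 and its change exceeded 2-fold. By this threshold none of the 10 was called (limma, Benjamini-Hochberg adjustment over 28972 probes), against 1 of all probes tested (0.00345%). The largest difference was that of Zeb2. Its mean log2 signal was -2.30 ± 0.56 (SD, n = 2) in the wild-type lines and -3.29 ± 0.22 (SD, n = 3) in the knock-in lines. The log2 difference was -1.0 with a standard error of 0.30 (limma, unadjusted p = 0.0246, adjusted p = 0.571). The other kept Zeb2 probe gave -1.08 with a standard error of 0.34 (limma, adjusted p = 0.588). That probe was not well above background in the knock-in lines #757-1 and #757-2, so its difference is less certain. RF8 decided part of the difference of the brightest probe, since without RF8 the log2 difference of Zeb2 was -0.60. With normexp background correction in place of the scanner's own, it was -0.60 as well. Within slide 1, where #620-6 was the only knock-in line, it was -0.76, and between #620-6 and #620-2, which share a slide and a sex label, it was -0.36.

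None of the junction genes separated the genotypes, since their wild-type and knock-in lines overlapped. The log2 difference (knock-in minus wild-type) of Cdh1 was -0.26 with a standard error of 0.53 (limma, adjusted p = 0.969), that of Cldn6 was -0.05 with 0.78 (0.997), and that of Ocln was -0.65 with 0.44 (0.845). The Ocln value was -0.19 without RF8, -0.39 without #620-6 and -1.11 without #620-2. Cdh2 differed by 0.24 with a standard error of 0.61 (limma, adjusted p = 0.975). For Vim the difference was -0.10 with a standard error of 0.48 (limma, adjusted p = 0.985). For Fn1 it was -0.32 with 0.17 (0.772), both wild-type lines lying above all knock-in lines in the brightest probe but not the dimmest. For Snai1 it was -0.08 with 0.38 (0.985), for Snai2 it was 0.49 with 0.26 (0.777) and for Twist1 it was 0.14 with 0.50 (0.980). The lines of the groups did not overlap for 2 of the 10 genes, Fn1 and Zeb2, against 23.5% of all probes. At an unadjusted p under 0.05, 1 of the 10 was below the threshold (7.6% of all probes), and with a change of more than 2-fold added it was 0 of 10 (3.34%). With 2 lines against 3, an exact permutation test cannot give a p under 0.1.

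Within slide 1, the knock-in line #620-6 minus the mean of RF8 and #620-2 was -0.98 for Cdh1, -1.35 for Cldn6, -1.17 for Ocln, -0.50 for Cdh2, 0.60 for Vim, -0.48 for Fn1, 0.54 for Snai1, 0.78 for Snai2 and 0.77 for Twist1. Slide 2 held knock-in lines alone and gave no comparison. The sign of the within-slide value was opposite to that over all 5 lines for Cdh2, Vim and Snai1. With the slide added to the model as a block, none of the 10 passed (limma, lowest adjusted p = 0.602, that of Snai2).

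Pairs of lines showed where the genes varied. Between the wild-type lines RF8 and #620-2, 4 of the 10 genes differed more than 2-fold (Cdh1, Cdh2, Cldn6 and Twist1), against 10.3% of the probes that both arrays measured well above background. Twist1, at 1.00 on the log2 scale, lay just above the threshold, and the count was 3 with normexp or quantile normalization. These lines also differ in strain origin and sex label. Between #620-2 and #620-6, which differ in genotype, none of the 10 did, against 7.1%. The differences of #620-6 from #620-2 were -0.79 for Cldn6, -0.71 for Ocln, 0.55 for Snai2 and -0.43 for Cdh1, and the other genes differed by less. Between the knock-in lines #757-1 and #757-2, none of the 10 did either, against 1.81%. Twist1, at -0.64, differed most in that pair. The pair with the highest count was RF8 and #620-6, where 8 of the 10 genes differed more than 2-fold, against 14.2% of the probes.

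The division between #620 lines and the rest coincides with the sex label and with the number series of the lines, and these cannot be told apart. Of the 10 genes, 6 did not overlap between the 2 lines labelled female and the 3 labelled male (39.0% of all probes), 6 were below an unadjusted p of 0.05 (18.0%), 3 of them with more than 2-fold (7.33%), and none passed the adjusted threshold (0.342%). The log2 difference (#620 lines minus the others) was largest for Cldn6, at -1.54 with a standard error of 0.32 (limma, adjusted p = 0.133), and had the lowest adjusted p for Cdh2, at -1.28 with 0.16 (limma, adjusted p = 0.0736). It was -1.01 for Cdh1, 0.95 for Vim, 0.92 for Twist1 and 0.73 for Snai1 (limma, adjusted p between 0.112 and 0.198). On slide 1 alone, where RF8 was the only line labelled male, these differences were -1.51 for Cldn6, -1.36 for Cdh2, -1.31 for Cdh1, 0.93 for Vim, 1.14 for Twist1 and 0.62 for Snai1. Slide 2 held no #620 line. For Ocln, Snai2, Fn1 and Zeb2, the differences over all lines were -0.70, 0.35, -0.14 and 0.03 (limma, adjusted p between 0.438 and 0.982), and on slide 1 alone they were -1.27, 0.73, -0.34 and -0.98. With the slide as a block, 5 of the 10 genes in place of 3 differed more than 2-fold with an unadjusted p below 0.05. Over all 28972 probes the count rose too, to 2899 in place of 2124. None of the 10 was called with the block (limma, adjusted p between 0.135 and 0.553), against 149 of all probes.

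**Figure D3:**
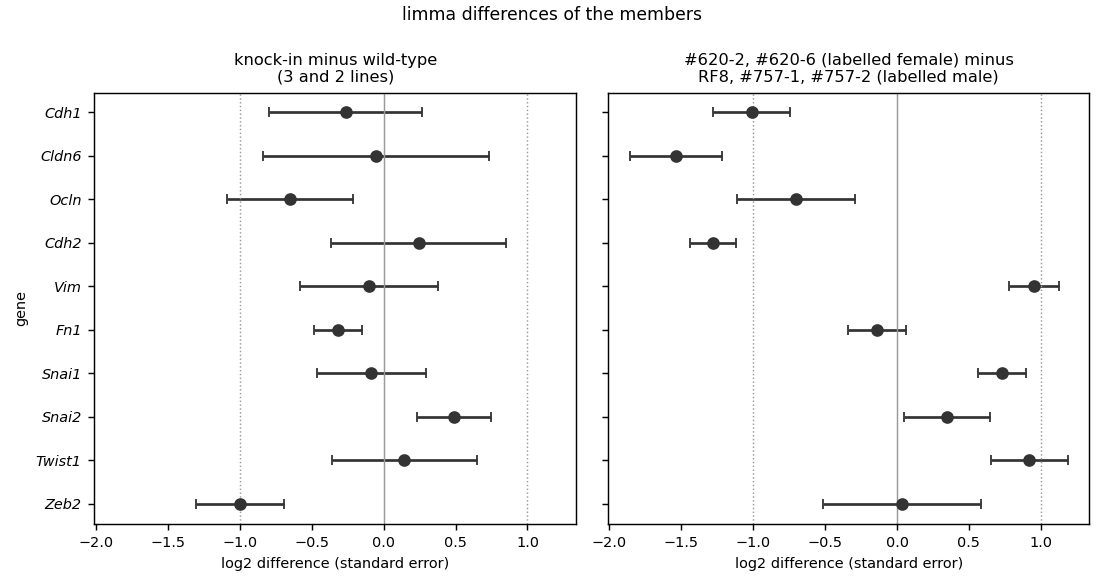
Points give the log2 difference of each gene (vertical axis) and bars its standard error from limma, on the left for knock-in minus wild-type lines and on the right for #620 lines minus the others. Dotted lines mark 2-fold. Zeb2, at -1.0, lay farthest from 0 on the left, and Cldn6, at -1.54, on the right, and none passed the adjusted threshold.

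Other genes of the same pathways were read from fixed lists, also chosen with earlier results of these data known. In the genotype comparison none of the kept genes in these lists passed the adjusted threshold. The differences between the #620 lines and the others are described below by their counts and medians, beside a median of -0.016 over all 28972 probes, where 99 probes passed (0.342%).

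Junction genes were mostly lower in the #620 lines. Of 14 tight junction genes kept, 12 had a negative and 2 a positive difference, the median was -0.46, and none passed. Cldn1, among the 12, was well above background in RF8 only and entered the comparison only through that line. The other 13 were well above background on all arrays. The most variable were Marveld3, Marveld2 and Cldn7, which encode membrane proteins of tight junctions. Marveld3 had log2 signals of -0.18 in RF8, -2.04 in #620-2, -3.07 in #620-6, -0.82 in #757-1 and -1.03 in #757-2. Marveld2 gave -0.48, -2.30, -2.87, -0.73 and -1.16 in the same order of lines. Cldn7 gave 3.70, 1.93, 1.60, 3.66 and 3.33. In all 3 genes both #620 lines lay below the other lines, with log2 differences of -1.88, -1.80 and -1.80 (limma, adjusted p = 0.145, 0.0954 and 0.0648).

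Of 10 adherens junction genes, 8 had a negative difference, the median was -0.34 and none passed. Cdh3, which encodes P-cadherin, varied most, with -0.08 in RF8, -1.27 in #620-2, -1.31 in #620-6, 0.29 in #757-1 and 0.08 in #757-2 (log2 difference -1.39, limma, adjusted p = 0.0704). Jup (plakoglobin) and Nectin1 had ranges of 0.90 and 0.96. The catenin gene Ctnnb1 was nearly level, between 4.31 and 4.49. Of 9 desmosome and keratin genes, 7 had a negative difference, the median was -0.71 and none passed. Krt19, Dsp and Krt8 varied most, and each was highest in RF8 and lowest in #620-2, with signals from 0.12 to 3.12 for Krt19, from -1.28 to 1.28 for Dsp and from 2.97 to 5.10 for Krt8. Of 10 regulators of the epithelial state, 8 had a negative difference, with a median of -0.38, and none passed. Esrp1 and Esrp2, which encode epithelial splicing regulators, differed by -1.37 and -0.91 (limma, adjusted p = 0.102 and 0.213), whereas Elf3 was at 0.82 (limma, adjusted p = 0.476).

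Mesenchymal genes divided. Of 17 effector genes, 7 had a positive and 10 a negative difference, the median was -0.05, and 1 passed. This was S100a4, also known as fibroblast-specific protein, with log2 signals of -0.06 in RF8, 5.61 in #620-2, 5.70 in #620-6, -1.66 in #757-1 and -1.40 in #757-2. It was higher in both #620 lines than in any other, by 6.70 on the log2 scale with a standard error of 0.53 (limma, adjusted p = 0.0404). The call was lost when any 1 of #620-2, #620-6, #757-1 or #757-2 was left out (limma, adjusted p between 0.157 and 0.224), and the log2 difference then stayed between 6.39 and 6.74. It was also lost with genotype as a covariate (limma, adjusted p = 0.0729). With that covariate, or without #757-1 or #757-2, 0 of all 28972 probes were called, so these losses are not particular to S100a4. Cd44, a hyaluronan receptor, gave -1.42, 1.48, 1.65, -3.06 and -2.53 in the same order of lines (limma, adjusted p = 0.0791). Tagln, an actin-binding protein gene of smooth muscle, had the opposite order, with 5.28, 3.08, 2.22, 4.59 and 4.20 (limma, adjusted p = 0.134).

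Of 8 further transcription factor genes of the epithelial-mesenchymal transition, 5 had a positive difference, the median was 0.90, and 3 passed. Of the 8, 5 were well above background on all arrays, and none of the 3 that passed was among them. These 5 differed by 0.97 (Zeb1), 0.83 (Twist2), -0.38 (Snai3), -0.53 (Tcf3) and -0.51 (Tcf4). Prrx1, a homeobox gene, had log2 signals of -2.16 in #620-2 and -2.07 in #620-6, against -5.50 in RF8, -6.26 in #757-1 and -6.22 in #757-2 (limma, adjusted p = 0.0364). Sox9 had -0.69 and -0.54 in the #620 lines, against -3.95, -4.91 and -4.31 in the others (limma, adjusted p = 0.0419). In both genes RF8 was the only line labelled male in which the probe was well above background. Both calls were lost when any 1 of the lines #620-2, #620-6, #757-1 and #757-2 was left out (limma, adjusted p between 0.118 and 0.244) and with genotype as a covariate (limma, adjusted p = 0.0729 and 0.0758), and that of Sox9 also without RF8 (limma, adjusted p = 0.0521). As stated above, no probe of the array was called with that covariate or without #757-1 or #757-2. The third, Foxc2, was well above background in the #620 lines only, with -3.07 and -2.96 there. With the scanner's background correction it was at least 3.54-fold higher in them. With normexp its log2 difference was 0.91, below 2-fold. Foxc2 entered the test only through the #620 lines, so its call is no support for a difference. The bound of Foxc2 sets the mean of the #620 lines against the mean, over the other arrays, of the higher of the probe's own signal and the lowest signal well above background. Zeb1, a relative of Zeb2, gave -1.98 in RF8, -0.67 in #620-2, 0.33 in #620-6, -1.06 in #757-1 and -0.40 in #757-2, so that #757-2 lay between the #620 lines (limma, adjusted p = 0.446). Twist2 and Tcf4 had ranges of 1.58 and 1.06. Of 12 genes of the TGF-β pathway, 6 had a positive and 6 a negative difference, the median was 0.04, and none passed. The ligand genes Tgfb1 and Tgfb2 differed by -0.99 and -1.69, and the receptor gene Tgfbr2 by 1.34 (limma, adjusted p between 0.134 and 0.325). The ligand gene Tgfb3 went the other way from Tgfb1 and Tgfb2, with -1.49 in #620-2 and -1.44 in #620-6 against -3.55, -4.58 and -4.02 in the other lines, and was well above background in 3 lines (limma, adjusted p = 0.0745).

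**Figure D4:**
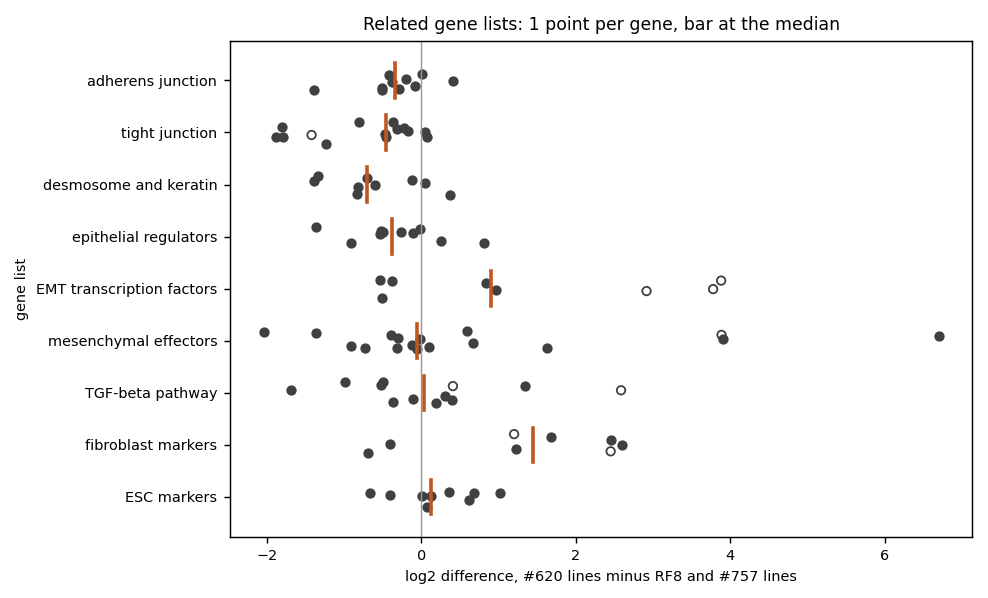
Each point is 1 gene of the list named on the vertical axis, placed on the horizontal axis by its log2 difference between the #620 lines and the other 3 lines. Filled points were well above background on all 5 arrays, open points on fewer, bars mark the list's median, and the vertical scatter within a list has no meaning. The medians of the junction and epithelial lists lay between -0.71 and -0.34, and S100a4, at 6.70, lay farthest from 0.

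Markers of other cell types moved with some of these differences. Of 9 fibroblast markers, 8 were kept and Fap was not, and 6 were well above background on all 5 arrays. Their summed signal, given in multiples of the array's 75th percentile, came to 15.71 for RF8, 9.70 for #620-2, 9.15 for #620-6, 2.38 for #757-1 and 4.67 for #757-2. The sum was thus from 9.15 to 15.71 on slide 1, and 2.38 and 4.67 on slide 2. The lower wild-type line, #620-2, lay just above the highest knock-in line, #620-6, which shares its slide. The brightest probes of Zeb2 and Fn1 were also higher in both wild-type lines, but that of Fn1 was lowest in #620-6. The part of the slide in these sums was not tested. The sum adds probes of different brightness. Col1a1 and Col1a2 contributed most to it in RF8, with log2 signals of 2.98 and 2.52. Of the 8 genes, 6 had a positive difference between the #620 lines and the others, as Vim, Snai1 and Twist1 did, with a median of 1.45, and none passed. The other 2, Col1a1 and Postn, had differences of -0.69 and -0.41. Lum, among the 6 with a positive difference, was well above background in the #620 lines only and entered the comparison only through them. Col3a1 and Dcn were highest in the #620 lines, with differences of 2.60 and 2.45 (limma, adjusted p = 0.107 and 0.0745), and so was Thy1, at 1.68 (limma, adjusted p = 0.119). Col1a2 had the widest range, with signals of 2.52 for RF8, 1.63 for #620-2, 1.54 for #620-6, -1.38 for #757-1 and -0.04 for #757-2. Of 11 markers of primitive and parietal endoderm, 9 had a positive difference, with a median of 0.50, and 2 passed. Of these, Pdgfra, also a mesenchymal receptor, was well above background in the #620 lines only. With the scanner's background correction it was at least 7.66-fold higher there, and with normexp its log2 difference was 1.80. Pdgfra too entered the test only through the #620 lines. The other, Sox17, had signals of -2.64 in #620-2 and -2.99 in #620-6 and -4.99 in RF8, and was not well above background in #757-1 and #757-2 (limma, adjusted p = 0.0364). Its call was lost when any line was left out (limma, adjusted p between 0.0713 and 0.191) and with genotype as a covariate (limma, adjusted p = 0.0731). With that covariate, or without #757-1 or #757-2, no probe of the array was called. Among the markers measured in all lines, Sox7, Gata6 and Col4a2 varied most, with differences of 2.31, 1.60 and 0.50 (limma, adjusted p between 0.145 and 0.417). The summed signal of the list was from 6.74 to 7.34 in the #620 lines and from 7.0 to 8.11 in the others. Of 5 kept markers of the primitive streak and mesoderm, 3 had a positive difference and none passed, and Kdr, Gsc and Eomes varied most, with ranges of 2.67, 1.81 and 1.25. Of 4 neural markers, 3 had a negative difference and none passed, and Nes and Pax6, which are expressed in neural progenitors as Cdh2 is, differed by -2.06 and -1.32 (limma, adjusted p = 0.112 and 0.230). Olig2 followed neither, with -7.34 in RF8, 0.24 in #620-2, -6.35 in #620-6, 0.80 in #757-1 and -0.88 in #757-2, and was well above background in 3 lines. The part of such cells in the differences above was not tested.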

How the data were processed

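Cy3-labelled RNA from each of 5 ESC lines was read on an Agilent 1-colour array of its own. Per the file headers, spots were quantified in Feature Extraction 9.5.3.1. The files deposited by the authors give every spot's mean intensity, background intensity and background-corrected intensity, before any scaling between arrays. A log2 table of these arrays, deposited as well, served as an alternative. Its differences between arrays had a slope of 1.00 on the scanner values, so only a shift per probe is unknown, and its column medians lay from -0.101 to 0.0772. Flags of 0 or 1, deposited as other values, mark spots above background, saturated or non-uniform.

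Control spots and marked spots (at most 0.355% per array) were left out, intensities were divided by the 75th percentile of the array (687.5 to 794.4), log2 was taken and spots of a probe averaged. No spot was saturated. The 28972 probes with a Present call on any array were tested. Lines were grouped by the genotype and sex labels and compared with limma 3.58.1 in R 4.3.3 (Benjamini-Hochberg, threshold 0.05 and 2-fold), after the code had been tested on simulated data. Gene names came from the files and, by accession or synonym, from RefSeq (GRCm38.p6). The members and lists were chosen with earlier results of these data known. From each list, genes that passed and the 3 with the widest range among probes well above background on all arrays were named. Ctnnb1, Tgfb3, Thy1, Olig2, Snai3, Tcf3, Col1a1, Postn, Lum and Cldn1 were chosen after their values were seen. The lowest log2 signal well above background was -6.21 to -5.90 on slide 1 and -4.49 to -4.22 on slide 2. The number of arrays limits the precision. Alternatives were normexp (offset 50), quantile normalization, the deposited table, other filters, marked spots kept, the slide as a block, the other label as a covariate, the methods' t-test, the mean over a gene's probes, and leaving out each line. Figures were drawn with matplotlib 3.10.9.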

Additional observations from a re-analysis of the deposited data

Results flagged for a closer look

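Cdh2 and Snai1 are given here because the genotype difference within the lines labelled female was opposite in sign to that within the lines labelled male. In the female-labelled pair, #620-6 minus #620-2 was 0.241 for Cdh2 and 0.299 for Snai1 on the log2 scale. Relative to RF8, the male-labelled knock-in lines #757-1 and #757-2 were at -0.014 and -0.24 for Cdh2 and at -0.083 and -0.23 for Snai1. The difference between the sexes was not tested. Each line has 1 array, and RF8 lies on another slide than #757-1 and #757-2.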

How the results depend on the processing

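None of the 10 genes was called between genotypes under any alternative run. With a line left out, 38 of their log2 differences kept their sign and 12 did not, and under other settings 95 kept it and 5 did not. With the sex label as a covariate the log2 difference was 0.060 for Vim and 0.038 for Snai1, and with the slide as a block it was -0.50 for Cdh2, 0.60 for Vim and 0.54 for Snai1. With each line left out in turn it ranged from -0.81 to 0.28 for Cdh1, -0.50 to 0.99 for Cdh2, -0.61 to 0.60 for Cldn6, -0.52 to 0.32 for Vim, -0.39 to 0.15 for Snai1, -0.36 to 0.65 for Twist1, -1.11 to -0.19 for Ocln, 0.26 to 0.72 for Snai2 and -1.39 to -0.60 for Zeb2. The number of probes called on the whole array was 0 in place of 1 with normexp, quantile normalization, no filter, the stricter filter, the sex label or slide as a term, the methods' t-test, or with any 1 line left out, where 258 to 1828 probes had an unadjusted p under 0.05 and over 2-fold, and 2 with the mean over a gene's probes, which tests fewer features. Between the #620 lines and the others, 0 of the 10 genes were called, but 1, Cdh2, with normexp (-1.07) and with the stricter filter (-1.28), which tests fewer probes. Over all probes, 287 of 28972 were called with normexp and 145 of 20610 with the stricter filter, against 99 of 28972 without either change. Zeb2 turned to -0.098 with normexp, -0.022 with quantile normalization, -0.14 with genotype as a covariate and -0.98 with the slide as a block, an alternative chosen after seeing the data, as was keeping marked spots there. With lines left out it ranged from -0.25 to 0.54, Fn1 from -0.34 to 0.070, Ocln from -1.06 to -0.35 and Snai2 from 0.073 to 0.62, and Twist1 was at 0.57 with normexp. Of the list genes called there, S100a4, Prrx1, Sox9, Sox17 and Foxc2 lost the call without a filter on dim probes, which tests more of them (limma, adjusted p between 0.061 and 0.102). Over all probes, 27 of 41174 were called then. Sox9, Sox17 and Foxc2 lost it with the slide as a block (limma, adjusted p = 0.0688, 0.0733 and 0.054). With genotype as a covariate Foxc2 and Pdgfra lost it too (limma, adjusted p = 0.0719 and 0.0531), as did every other probe. With normexp the log2 difference was 0.83 for Sox17 and 0.91 for Foxc2, both below 2-fold, 1.80 for Pdgfra, 1.48 for Prrx1 and 2.45 for Sox9. The cause was not tested. No paired analysis was possible because each line has 1 array and the replicate numbers were assigned here. Signals low on slide 2 limit the dim probes of Zeb2 and Fn1.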
